A study of Mus musculus with 312 samples.

Results

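The genes described here encode, in the nucleus, the subunits of the mitochondrial respiratory chain and of ATP synthase. They were chosen by symbol alone, as all genes named Nduf with a subunit letter and number, Sdha to Sdhd, Uqcr, Cyc1, Cox4 to Cox8 or Atp5. The rule took 92 of the 27179 gene IDs in the deposited counts, of which 87 are protein coding and 5 are pseudogenes. By complex, 42 belong to complex I (NADH dehydrogenase), 4 to complex II (succinate dehydrogenase), 10 to complex III (the cytochrome bc1 complex), 18 to complex IV (cytochrome c oxidase) and 18 to complex V (ATP synthase).

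RNA was counted in 312 single cells sorted from mammary glands of female mice of the FVB/NJ strain. The labels call all of them basal, the epithelium that forms the outer, contractile layer of the ducts. The labels divide them into 112 adult cells whose titles carry the mark "(2)", called marked adult cells here, 125 adult cells without it, called unmarked adult cells, and 75 cells from pregnancy. The adults were 10 weeks old. The labels name no mutant allele and no treatment, and the meaning of the mark is not given in the sources used here. The day of pregnancy is not in the labels, and the study's text describes its pregnancy cells of this instrument as taken at mid-pregnancy. Each cell was captured in its own chamber of a Fluidigm C1 instrument, cDNA was made from polyadenylated RNA, and libraries were made with the Nextera XT kit and sequenced on an Illumina NextSeq. The labels call the pregnancy cells basal, whereas the study's text describes them as total epithelium, so their sort rests on the labels. All pregnancy cells carry titles of one form, so pregnancy itself and the run in which these cells were captured cannot be told apart.

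Cells entered the comparisons if they held 50000 or more assigned read pairs and 1000 or more detected genes, counted without mitochondrial genes, cytosolic ribosomal protein genes and IDs without a symbol. This kept 81 marked adult, 58 unmarked adult and 71 pregnancy cells, with medians of 174910, 101320 and 230645 assigned read pairs. CPM is the count of a gene per 1e6 assigned read pairs of its cell, and detection was taken after each cell was thinned at random to 50000 read pairs. The labels name no animals, so a group counts as 1 sample here, and the differences below were not tested and have no replicate check. Intervals are exact 95% Clopper-Pearson or Poisson intervals. Those over cells treat cells as independent draws. Those over read pairs can be too narrow, because the counts carry no molecular identifiers and copies of one molecule count separately. Neither kind covers differences between animals or capture runs. Of 11 core basal genes (Krt14, Krt5, Acta2, Trp63 and others), at least 6 reached 100 CPM in 76 of 81 marked, 51 of 58 unmarked and 70 of 71 pregnancy cells. At least 3 of 7 pan-luminal genes did so in 18, 9 and 6 cells and at least 3 of 14 proliferation genes in 2, 6 and 12 cells, in the same order. At least 3 genes of the fibroblast, pericyte, endothelial and immune lists did so in at most 3 cells of a group for each list, and at least 3 of 7 milk protein genes in 0, 4 and 4 cells. The median sum of the 8 fibroblast genes was 4.22, 28.8 and 561 CPM, and the highest milk protein sum was 223037 CPM, in a pregnancy cell. The part of such RNA in the differences below was not tested.

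Complexes I and II take electrons from NADH and succinate and pass them through ubiquinone to complex III, cytochrome c and complex IV, where oxygen is reduced. Complexes I, III and IV pump protons across the inner membrane, and complex V uses the gradient to make ATP. Complexes I, III, IV and V each join subunits made in the mitochondrion with subunits encoded in the nucleus, while complex II is encoded in the nucleus alone. Several subunits of complex IV have paralogs used in particular tissues, such as heart, skeletal muscle, lung or testis.

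Most respiratory chain genes were expressed widely but at moderate level in the basal cells. Summed over the 92 genes, expression was 5132 CPM in the lowest, 14613 in the median and 31808 in the highest marked adult cell. The unmarked adult cells gave 5990, 15810 and 31974 CPM, and the pregnancy cells 5983, 17448 and 32249 CPM. The ranges of the 3 groups overlapped almost fully. The pregnancy median was 1.19 times that of the marked and 1.10 times that of the unmarked cells, and 73.2% of pregnancy cells lay above the marked median and 63.4% above the unmarked one. Read pairs pooled within a group gave 15705 CPM (exact Poisson interval 15641 to 15768) in marked, 17034 (16938 to 17131) in unmarked and 19416 (19348 to 19483) in pregnancy cells. The groups stood in one order by both measures, but the pooled values weight deeply sequenced cells more. With effective library sizes scaled by DESeq2 size factors the order of the pregnancy and unmarked medians turned, to 16430 and 16537 CPM.

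**Figure D1:**
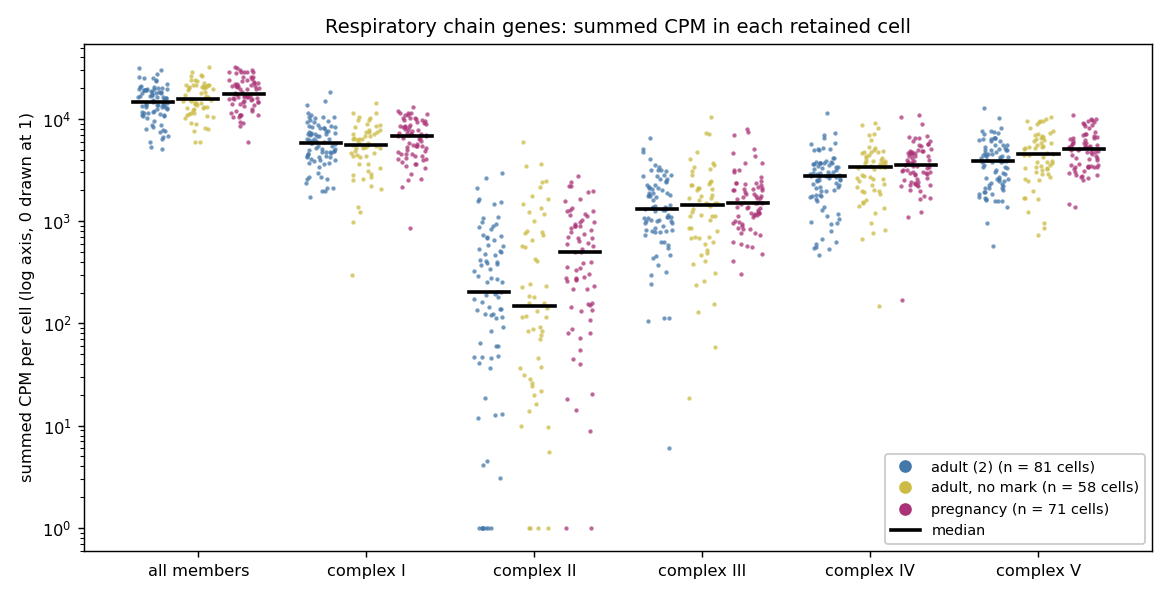
Summed CPM of the nuclear-encoded respiratory chain genes in each retained cell on a log axis, by complex and group, with 1 point per cell and a line at the median. The groups overlap in every complex, with complex I medians of 5767 CPM in marked, 5564 in unmarked and 6836 in pregnancy cells.

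Complex I held the largest part of the summed expression, with medians of 39.9% in marked, 32.9% in unmarked and 36.6% in pregnancy cells. Complex V took 24.7%, 28.8% and 27.8%, complex IV 18.1%, 20.6% and 20.6%, complex III 9.80%, 8.75% and 8.11%, and complex II 1.37%, 0.971% and 2.86%. These are shares of read pairs over genes of unequal number and length and do not give the stoichiometry of the complexes. The median sum of complex IV was 2762 CPM in marked, 3365 in unmarked and 3555 in pregnancy cells, and that of complex V was 3857, 4511 and 5080 CPM. Complex III lay closest between the groups, at 1328, 1449 and 1514 CPM. Complex II had medians of 202, 150 and 502 CPM, which puts pregnancy 2.49 times above the marked and 3.35 times above the unmarked median. Its means differed less, by 1.52 and 1.01 times.

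In a thinned cell, between 22 and 71 of the 92 genes were detected in marked adult cells, with a median of 50. Unmarked adult cells held 19 to 75 with a median of 45, and pregnancy cells 31 to 75 with a median of 55. Genes of any kind were also detected in larger number in pregnancy cells, with medians of 2312, 2193 and 3211 genes at the same depth. Over cells the number of respiratory chain genes detected followed the number of all genes detected, with Spearman's rho of 0.85 over 81 marked, 0.74 over 58 unmarked and 0.70 over 71 pregnancy cells, where both measures come from the same thinned library. At least 1 read pair in every retained cell before thinning was found for 8 genes in pregnancy (Ndufa4, Uqcrh, Cox4i1, Cox6c, Atp5a1, Atp5b, Atp5g3 and Atp5mpl) and for 0 genes in either adult group, where fewer read pairs were counted per cell. After thinning, 17 genes were found in at least 90% of pregnancy cells, against 6 in marked and 3 in unmarked adult cells. These counts have no share of all genes beside them, and do not show a rise particular to the respiratory chain. Respiratory chain genes whose mean reached 50 CPM in a group were detected in a median of 69.8% of marked, 62.9% of unmarked and 75.4% of pregnancy cells. All genes above the same limit had medians of 39.5%, 37.9% and 54.9%, and were also lower in mean level.

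**Figure D2:**
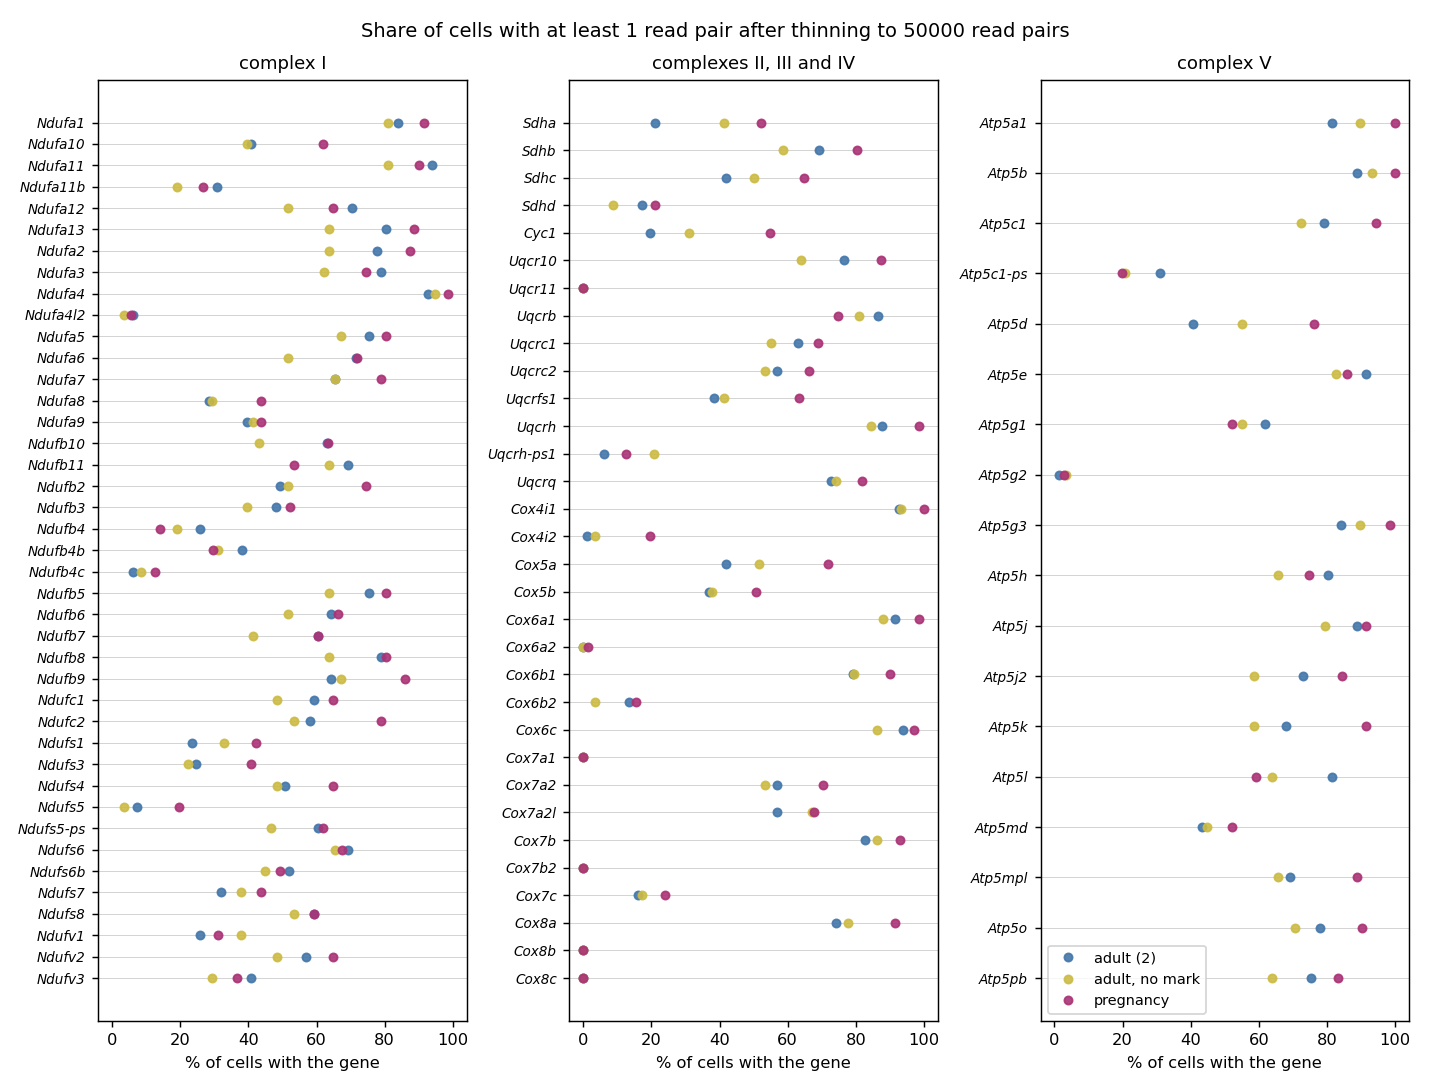
Percent of retained cells in which each gene shown was detected after thinning to 50000 read pairs, by complex and group, with 1 point per gene. Of the 92 genes, those found in at least 50% of cells numbered 54 in marked, 51 in unmarked and 65 in pregnancy cells. Genes of any kind were also detected in larger number in pregnancy cells.

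Which genes differed between the groups was asked of genes whose mean reached 50 CPM in one of the groups compared, as log2 of the ratio of mean CPM after adding 10. For pregnancy over marked adult cells, 68 respiratory chain genes passed, 47 had a positive log2 ratio and the median was 0.28, against 0.06 over all 4574 genes that passed. At least 2-fold higher were 7 genes, or 10.3% (among them Ndufa10, Ndufs5-ps, Cyc1, Uqcrc1, Cox5a and Atp5d), where 18.4% of all genes were. At least 2-fold lower were 0 genes, where 15% of all genes were. Both shares lay below those of all genes, and the respiratory chain genes also had the higher mean, at a median of 170 against 87.8 CPM.

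For pregnancy over unmarked adult cells, 46 of 67 genes had a positive log2 ratio, with a median of 0.17 against 0.02 over all 4694 genes. At least 2-fold higher was 1 gene (1.49% of the 67, against 19.7% of all genes), and Ndufb11 was at least 2-fold lower (1.49%, against 19.3%). For unmarked over marked adult cells the median was 0.05, against 0.03 over all 4578 genes. Of 67 genes, 4 were at least 2-fold higher (Atp5d, Cox5a, Ndufv1 and Sdhc, 5.97% against 18.9%) and 2 lower (Ndufa9 and Ndufb8, 2.99% against 16.7%). The pregnancy cells are shared by the first 2 comparisons, so those are not independent of each other. The median size of the log2 ratio, whatever its sign, was 0.37, 0.30 and 0.31 for the respiratory chain genes in the 3 comparisons and 0.67, 0.78 and 0.68 over all genes. The differences between the adult groups, both labelled adult basal cells, were thus of a size like those between pregnancy and adult cells.

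**Figure D3:**
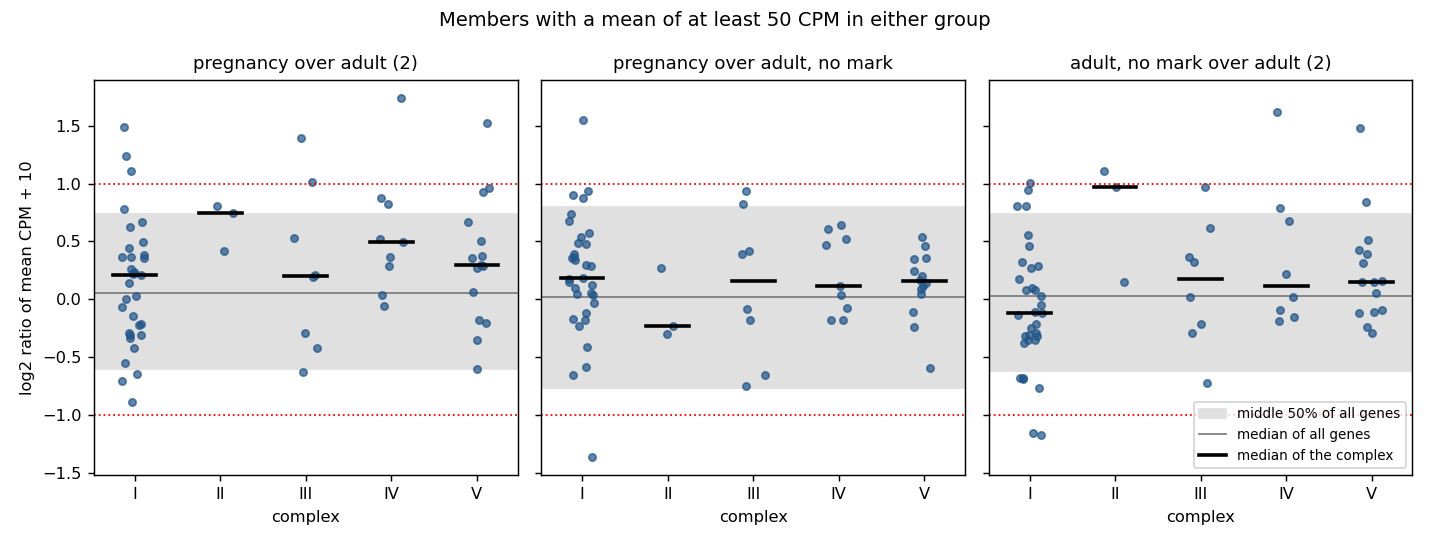
Log2 ratio of mean CPM of each respiratory chain gene that passed 50 CPM, by complex, in the 3 comparisons. The grey band holds the middle 50% of all genes that passed and dotted lines mark 2-fold; for pregnancy over marked cells 7 genes lie above the upper line and 0 below the lower line.

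Detection gave a second measure. The share of thinned cells with a read pair was larger in pregnancy than in marked cells for 56 of the 68 genes (82.4%), where it was larger for 78.9% of all genes. The exact interval in pregnancy lay wholly above that in marked cells for 13 genes (19.1%, against 27.2% of all genes). Among these were Ndufb2, Ndufb9, Sdha, Cyc1, Uqcrfs1, Cox5a, Atp5a1, Atp5b, Atp5d, Atp5g3, Atp5k and Atp5mpl. It lay wholly below for Atp5l alone (1.47%, against 1.4%). Against unmarked cells the share in pregnancy was larger for 63 of 67 genes (94.0%, where 81.1% of all genes were). Its interval lay above for 8 of them (11.9%, against 22%), which were Ndufa2, Ndufa13, Ndufc2, Uqcr10, Atp5c1, Atp5j2, Atp5k and Atp5mpl, and below for 0 (0.767% of all genes). Between the adult groups the share was larger in unmarked cells for 24 of 67 genes (35.8%, against 48.1%), with intervals apart in either direction for 0 genes (1.25% and 0.655% of all genes).

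Complex I consists of core subunits, which carry flavin and iron-sulfur clusters and move the electrons, and accessory subunits around them. The 7 core genes had a summed mean of 802 CPM in marked, 925 in unmarked and 932 in pregnancy cells. The 32 accessory genes, taken as all other protein coding genes of the complex by symbol, had 5391, 4756 and 5741 CPM. They include Ndufa4, a protein since assigned to complex IV, with means of 422, 517 and 555 CPM, and also Ndufa4l2, Ndufb4b and Ndufb4c. Of 26 accessory genes that passed, 15 had a positive log2 ratio for pregnancy over marked cells (median 0.09) and 21 for pregnancy over unmarked cells (median 0.29), and the unmarked-over-marked median was −0.17. For the whole complex the medians were 0.21, 0.19 and −0.12.

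Ndufa10, an accessory subunit on the matrix side of the membrane arm, had CPM medians of 4.08 in marked, 1.26 in unmarked and 41.2 in pregnancy cells. Its lowest cell was at 0 in each group and its highest at 1295, 5175 and 2154 CPM. The highest value of all thus stood in an unmarked cell, which held 62.5% of that group's sum. The log2 ratio for pregnancy was 1.49 over marked and 0.68 over unmarked cells, and 1.59 and 1.75 without the highest cells. Ndufs4, whose loss causes a Leigh-like disease in mice, had medians of 14.8, 8.45 and 36.6 CPM and highest cells at 1769, 2117 and 2271, with log2 ratios of 0.78 and 0.90. Ndufc2, a membrane arm subunit, had medians of 40.3, 17.0 and 70.7 CPM with log2 ratios of 0.67 and 0.57. In all of these the lowest cells were at 0 and the groups overlapped.

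Ndufb11 encodes a membrane arm subunit and lies on the X chromosome, at chrX:20615326-20617619 of GRCm38. Its CPM had medians of 52.5 in marked, 74.4 in unmarked and 18.1 in pregnancy cells, with lowest cells at 0 and highest at 1334, 5243 and 1074. The pregnancy cells thus lay lower by median and mean, within the range of the adult cells. Its log2 ratio was −0.55 over marked and −1.36 over unmarked cells, where one unmarked cell held 30.8% of the sum, and −0.60 and −1.05 without the highest cells. Detection differed less, at 69.1%, 63.8% and 53.5% of cells. Ndufc1, a membrane arm subunit, had a slightly lower mean in pregnancy (log2 ratios −0.31 and −0.18) but medians of 27.7, 12.4 and 40.1 CPM and detection in 59.3%, 48.3% and 64.8% of cells, which order the groups the other way. The iron-sulfur subunit Ndufs8 had log2 ratios of −0.21 and −0.17 and medians of 34.3, 19.3 and 25.3 CPM. Without the highest cells the ratios over unmarked cells were −0.015 for Ndufc1 and −0.02 for Ndufs8, and both genes changed sign under some other settings.

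Between the adult groups, Ndufb8 and Ndufa9 had the lowest ratios in unmarked cells. Ndufb8, a membrane arm subunit, had medians of 149 CPM in marked, 56.2 in unmarked and 167 in pregnancy cells, with lowest cells at 0 and highest at 6607, 3726 and 4480. Its log2 ratio for unmarked over marked was −1.15, and −1.32 without the highest cells. Ndufa9, a subunit at the junction of both arms, had a mean of 241 CPM in marked and 101 in unmarked cells and a log2 ratio of −1.17. That value rested on one marked cell at 11344 CPM, which held 58.2% of the sum, and was −0.25 without the highest cells. Ndufb10 had a log2 ratio of −0.76, with medians of 72.1 and 0 CPM. Ndufv1, the flavin subunit, had the opposite direction at 1.01, and 0.57 without the highest cells.

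Ndufs5 illustrates a limit of the counts. The gene itself, an accessory subunit, had a mean of 1.41 CPM in marked, 1.63 in unmarked and 5.45 in pregnancy cells, from 22, 10 and 95 read pairs. Ndufs5-ps, annotated as its pseudogene, had means of 62.0, 71.3 and 145 CPM and medians of 13.0, 10.5 and 55.7 CPM, with log2 ratios of 1.11 and 0.93 for pregnancy. Of the 75-base windows of Ndufs5 transcripts, 15.7% also occur in another annotated gene, and how read pairs that match several genes were handled is not given in the sources used here. Which of the genes the reads came from is therefore uncertain. Across the respiratory chain, 38 of 87 genes with transcripts in the reference shared at least 1 such window with another gene and 49 shared none.

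Complex II oxidises succinate in the citric acid cycle. Sdha, its flavin subunit, had medians of 0 CPM in marked, 11.4 in unmarked and 12.4 in pregnancy cells, with lowest cells at 0 and highest at 2655, 3607 and 2254. It was detected in 21.0% (12.7 to 31.5) of marked, 41.4% (28.6 to 55.1) of unmarked and 52.1% (39.9 to 64.1) of pregnancy cells. The marked cells thus stood apart from pregnancy by detection, while all 3 groups overlapped in CPM. The log2 ratio was 0.74 for pregnancy over marked cells, −0.22 over unmarked cells and 0.97 for unmarked over marked. Without cells that held 3 or more proliferation genes, the first turned to −0.11.

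Sdhb, the iron-sulfur subunit, was the most highly expressed complex II gene per kilobase of exon, at means of 241, 269 and 326 CPM per kilobase. Its medians were 102 CPM in marked, 24.2 in unmarked and 137 in pregnancy cells, with lowest cells at 0, highest at 2732, 2652 and 2120, and log2 ratios of 0.42 and 0.27 for pregnancy. Sdhc, a membrane anchor that binds heme, had medians of 4.63, 10.3 and 31.9 CPM and highest cells at 864, 3405 and 1549. Its log2 ratio was 0.81 for pregnancy over marked, −0.30 over unmarked and 1.11 for unmarked over marked cells, the last being 0.81 without the highest cells. Sdhd, the other anchor, was listed far below its partners, at means of 9.81, 5.40 and 12.7 CPM, and was found in 17.3%, 8.62% and 21.1% of cells. None of its 75-base windows was shared with another gene.

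Complex III passes electrons through the Rieske protein Uqcrfs1 and cytochrome c1 (Cyc1). Cyc1, at chr15:76343513-76346260, had medians of 0 CPM in marked, 0 in unmarked and 12.7 in pregnancy cells, with lowest cells at 0 and highest at 511, 2389 and 1356. It was detected in 19.8% (11.7 to 30.1), 31.0% (19.5 to 44.5) and 54.9% (42.7 to 66.8) of cells. Its log2 ratio was 1.39 over marked and 0.42 over unmarked cells, and 1.36 and 1.04 without the highest cells. The pregnancy cells thus exceeded the marked cells by level and by detection, and the intervals against unmarked cells overlapped narrowly. Uqcrfs1 had medians of 0, 3.31 and 34.1 CPM and was detected in 38.3%, 41.4% and 63.4% of cells, with log2 ratios of 0.21 and 0.93.

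The core proteins and small subunits of complex III did not share one direction. Uqcrc1, a core protein, had medians of 16.3 CPM in marked, 38.9 in unmarked and 66.1 in pregnancy cells, highest cells at 3420, 8998 and 6242, and log2 ratios of 1.01 and 0.39. Its 1.01 lies at the limit of 2-fold, and was 0.61 when read pairs were summed within groups. Uqcrc2, the other core protein, had the higher mean in adult cells, at 300, 304 and 190 CPM (log2 ratios −0.63 and −0.65), but its medians were 18.8, 11.7 and 36.5 CPM. Mean and median of Uqcrc2 thus differ in direction. Its highest cells stood at 4982, 6733 and 2158 CPM, and without them the log2 ratios were −0.54 and −0.23. In cells with at least 100000 read pairs and 1500 genes, the log2 ratio over unmarked cells was 0.55.

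Uqcrb, a small subunit at the ubiquinone site, was lower in pregnancy by mean and median. Its medians were 103 CPM in marked, 112 in unmarked and 65.1 in pregnancy cells, with lowest cells at 0, highest at 746, 950 and 744, and log2 ratios of −0.42 and −0.75. Of its windows, 29.1% were shared with other genes. Averaged over the 3 groups, Uqcrh, the hinge protein, and Uqcr10 had the highest means per kilobase in the complex, although Uqcrq exceeded Uqcr10 in both adult groups. The means were 561, 728 and 642 for Uqcrh and 437, 353 and 643 CPM per kilobase for Uqcr10. Uqcrh was found in 87.7%, 84.5% and 98.6% of cells and Uqcr10 in 76.5%, 63.8% and 87.3%. Uqcr11 had 0 read pairs in all cells. Of its windows, 1.69% were shared with another gene, and whether the 0 reflects its expression or its counting was not tested.

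Complex IV had the highest median log2 ratio of the large complexes for pregnancy over marked cells, at 0.50 with 8 of 9 genes positive, and 0.12 over unmarked cells. Cox5a, a subunit on the matrix side, had the largest ratio of all respiratory chain genes. Its medians were 8.90 CPM in marked, 23.7 in unmarked and 75.1 in pregnancy cells, with lowest cells at 0 and highest at 440, 3109 and 1328. The log2 ratio was 1.74 over marked and 0.12 over unmarked cells, and 1.62 for unmarked over marked cells. Without the highest cells these were 1.74, 0.52 and 1.22. The marked cells thus lay below both other groups, while the pregnancy mean lay close to the unmarked mean (171 and 157 CPM).

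**Figure D4:**
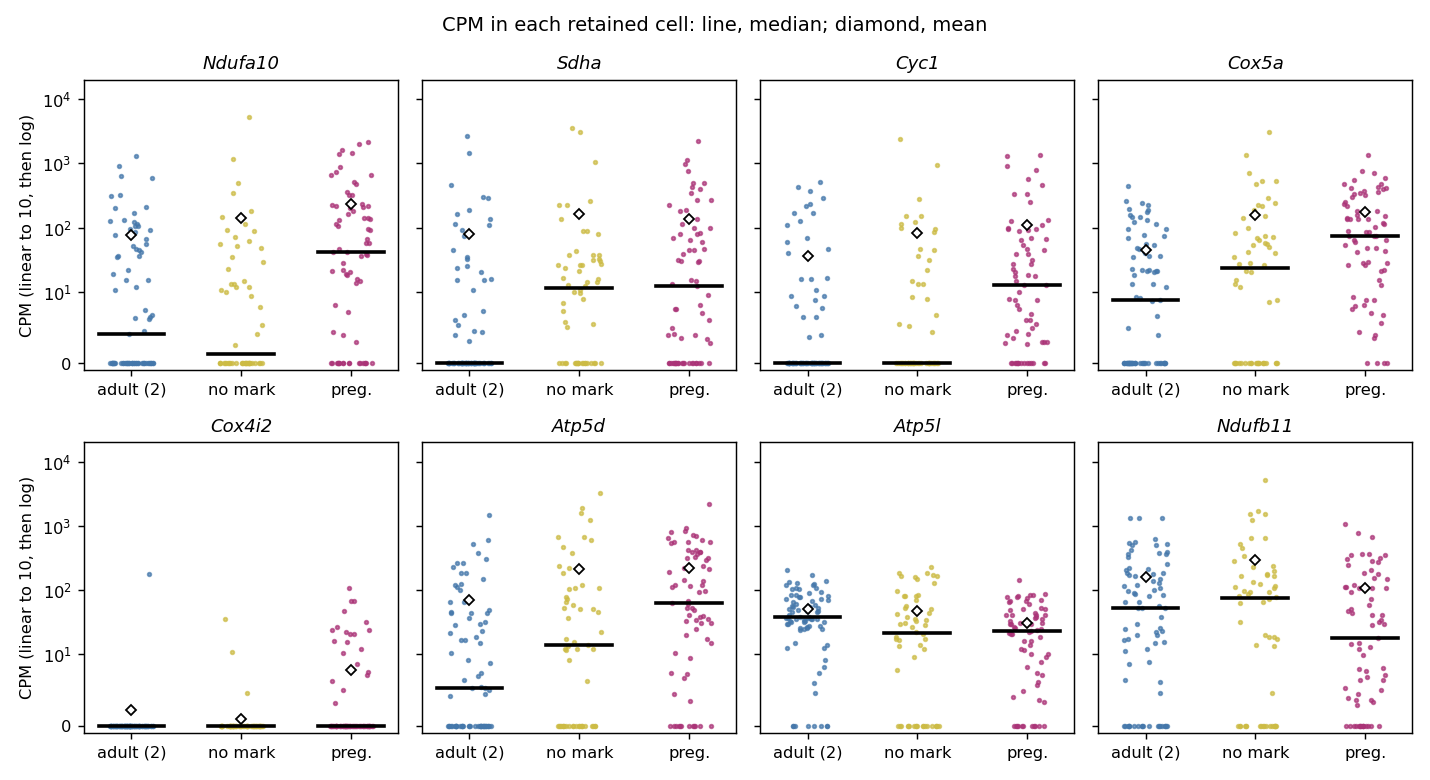
CPM per retained cell, on an axis that is linear to 10 CPM and logarithmic above, for Ndufa10, Sdha, Cyc1, Cox5a, Cox4i2, Atp5d, Atp5l and Ndufb11, with a line at the median and a diamond at the mean. Cells overlap between the groups for each gene; Cox5a medians are 8.90 CPM in marked, 23.7 in unmarked and 75.1 in pregnancy cells.

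The paralog pairs of complex IV were nearly all represented by their ubiquitous form. Cox4i1, the general form of subunit 4, had medians of 597 CPM in marked, 795 in unmarked and 943 in pregnancy cells, and lay at 1102, 1772 and 1562 CPM per kilobase by mean. Its log2 ratio was 0.50 over marked and −0.18 over unmarked cells, so mean and median order the unmarked and pregnancy cells differently. Cox6a1, the general form of subunit 6a, had the highest mean per kilobase in the complex in marked and pregnancy cells and was second to Cox4i1 in unmarked cells, at 1861, 1670 and 2409 CPM per kilobase. Its medians were 667, 565 and 1273 CPM with log2 ratios of 0.37 and 0.52. Cox6a2 and Cox7a1, the forms of heart and skeletal muscle, had means of 0.09, 0 and 0.21 CPM and of 0.10, 0 and 0.06 CPM. Cox7b2, Cox8b and Cox8c had 0 read pairs in all cells. Cox6b1 had means of 240, 210 and 296 CPM against 14.3, 10.3 and 18.9 CPM for Cox6b2, the form known from testis. Cox6b2 was found in 13.6% of marked, 3.45% of unmarked and 15.5% of pregnancy cells.

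Cox4i2, the form of subunit 4 known from lung and induced by low oxygen, was found in a larger share of pregnancy than of adult cells. It was detected in 1 of 81 marked cells (1.23%, 0.0313 to 6.69), 2 of 58 unmarked cells (3.45%, 0.420 to 11.9) and 14 of 71 pregnancy cells (19.7%, 11.2 to 30.9). The pregnancy interval lay above that of the marked cells and overlapped that of the unmarked cells slightly. Levels were low, with a lowest value of 3.20, a median of 24.1 and a highest value of 106 CPM in the 14 pregnancy cells, and 181 CPM in the marked cell. Pericytes are known to express Cox4i2. The 8 pericyte genes summed to a median of 15.1 and at most 158 CPM in the 14 pregnancy cells with Cox4i2, and to a median of 0 CPM in the other pregnancy cells. The part of pericyte RNA in the detection of Cox4i2 was not tested. Cox4i2 lies at chr2:152753916-152765039 and was below the mean of 50 CPM in each group, so it was not among the genes counted for 2-fold differences.

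Subunit 7a was represented by Cox7a2, with medians of 24.2, 22.3 and 57.2 CPM and log2 ratios of 0.87 and 0.64 for pregnancy, and by Cox7a2l, which joins complexes III and IV into supercomplexes, with means of 74.5, 136 and 140 CPM. Cox8a, the general form of subunit 8, had means of 221, 208 and 321 CPM and was found in 74.1%, 77.6% and 91.5% of cells. Cox7b did not follow, at 277, 280 and 266 CPM. Cox5b and Cox7c were listed far below these, at 18.5, 26.3 and 21.5 CPM and 3.74, 5.37 and 6.45 CPM, and 19.6% of Cox7c windows were shared with other genes.

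Ndufa4 and Ndufa4l2, counted with complex I by their symbols, form another pair. Ndufa4, a protein since assigned to complex IV, had a lowest cell at 0, a median of 286 and a highest cell at 2864 CPM in marked cells. The unmarked cells ran from 0 through 424 to 2763 CPM and the pregnancy cells from 14.6 through 466 to 1544 CPM. Its log2 ratios were 0.38 and 0.10, and it was found in 92.6%, 94.8% and 98.6% of cells. Ndufa4l2, its paralog induced by low oxygen, was found in 5, 2 and 4 cells. One marked cell at 1171 CPM held 90.7% of the marked sum. It was the marked cell that also held Cox4i2, had 4 core basal genes at 100 CPM and 46.1 CPM summed over the pericyte genes, with 0 of the 8 at 100 CPM. Of the other marked cells with Ndufa4l2, 1 held at least 3 pericyte genes, with a sum of 1451 CPM. In the 4 pregnancy cells the pericyte sum had a median of 205 CPM, against 3.31 CPM in pregnancy cells without Ndufa4l2. The part of pericyte RNA in these values was not tested.

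Complex V couples a catalytic head (F1) to a ring of c subunits in the membrane through a central and a peripheral stalk. The 5 head and central stalk genes had summed means of 1841 CPM in marked, 2632 in unmarked and 3044 in pregnancy cells, with median log2 ratios of 0.93 for pregnancy over marked, 0.09 over unmarked and 0.42 for unmarked over marked cells. The 4 peripheral stalk genes had 1004, 1084 and 1082 CPM. The 3 c ring genes stood in the opposite order, at 847, 726 and 687 CPM. Only 2 of them passed, with median log2 ratios for pregnancy of −0.02 over marked and 0.07 over unmarked cells, and 1 gene positive in each. The head and the ring of one enzyme thus differed in the order of their summed means. The ring order was that of the mean of Atp5g3, which carried most of its reads. The median of Atp5g3 ordered the groups differently, and Atp5g1 had its highest mean in pregnancy.

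Atp5d, the delta subunit of the central stalk, had medians of 5.33 CPM in marked, 13.8 in unmarked and 63.7 in pregnancy cells, with lowest cells at 0 and highest at 1485, 3218 and 2162. It was detected in 40.7% (29.9 to 52.2), 55.2% (41.5 to 68.3) and 76.1% (64.5 to 85.4) of cells. Its log2 ratio was 1.52 over marked and 0.05 over unmarked cells and 1.48 for unmarked over marked cells. As with Cox5a, the marked cells had the lowest mean and the means of the other groups lay close, at 217 and 224 CPM.

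Atp5a1 and Atp5b encode the alpha and beta subunits that form the catalytic sites. Atp5a1 ran from 0 through 265 to 5912 CPM in marked, from 0 through 382 to 6690 in unmarked and from 17.3 through 462 to 7839 CPM in pregnancy cells, with log2 ratios of 0.93 and 0.09. Atp5b ran from 0 through 328 to 2538, from 0 through 385 to 6179 and from 51.2 through 732 to 5265 CPM, with log2 ratios of 0.96 and 0.54. Both were found in 100% of thinned pregnancy cells, against 81.5% and 89.7% of marked and unmarked cells for Atp5a1 and 88.9% and 93.1% for Atp5b. No pregnancy cell was at 0 for either gene, while both adult groups held cells at 0, and above that the ranges overlapped.

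Atp5e, the epsilon subunit, and Atp5g3, a c ring gene, had the lower mean in pregnancy. Atp5e had medians of 242, 235 and 195 CPM and log2 ratios of −0.20 and −0.59, the latter −0.11 without the highest cells, as one unmarked cell reached 8252 CPM. Without cells above 30% mitochondrial reads the ratio over unmarked cells was 0.07. Atp5g3 had means of 797, 675 and 625 CPM but medians of 408, 256 and 516 CPM, so its mean and median order the groups differently. Atp5g1 had means of 48.1, 50.3 and 61.5 CPM and Atp5g2 1.73, 0.49 and 0.45 CPM, so Atp5g3 carried most of the reads of the 3 genes for subunit c.

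Among the small membrane subunits, Atp5k was found in 67.9% (56.6 to 77.8) of marked, 58.6% (44.9 to 71.4) of unmarked and 91.5% (82.5 to 96.8) of pregnancy cells. Its medians were 48.7, 33.6 and 93.1 CPM, its highest cells at 502, 751 and 617 CPM, and its log2 ratios 0.67 and 0.35. Atp5l (subunit g, which joins ATP synthases into dimers) went the other way. It was found in 81.5% (71.3 to 89.2), 63.8% (50.1 to 76.0) and 59.2% (46.8 to 70.7) of cells, with medians of 37.6, 21.8 and 23.1 CPM, highest cells at 208, 230 and 142 CPM and log2 ratios of −0.60 and −0.49. Of its 75-base windows, 65.9% occur in other genes, mostly pseudogenes, so how fully its read pairs were counted is uncertain. It was the only gene of the 87 with 50% or more of its windows shared.

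Many of these genes are known targets of the factors NRF-1 and GABP (NRF-2), and the upstream sequences were searched for letters of their sites. RefSeq promoters of GRCm38.p6, from 250 bases before to 50 after the start, were present for 69 of the 92 genes, among 27025 promoters in all. On either strand, the NRF-1 core GCATGCGC was found in 10 of 69 (14.5%, against 3.05% of all promoters), the GABP core CCGGAAG in 17 (24.6%, against 9.93%) and the YY1 core AAGATGGCG in 7 (10.1%, against 1.64%). Among promoters of protein coding genes the shares were higher than among all promoters, at 3.94% for NRF-1, 12.9% for GABP and 2.14% for YY1. At least 1 of the 3 cores was found in 28 of the 69 (40.6%), against 13.6% of all promoters and 17.6% of those of protein coding genes. The NRF-1 core is nearly palindromic, so matches on both strands can overlap, and CpG content was not matched.

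Both the NRF-1 and the GABP core were found for 5 genes, whose upstream strand is printed from a few bases before the first match to the last base before the start, 5′ to 3′ in the direction of the gene. Capitals mark NRF-1 (GCATGCGC, or GCGCATGC on the other strand) and GABP (CCGGAAG or CTTCCGG) matches. For Sdhb (chr4:140961205-140961270, plus strand) and Atp5k (chr5:108434400-108434461, minus strand) the GABP match lies past the start and is not shown. The others are Cox6a1 (chr5:115348959-115349132, minus strand), Atp5l (chr9:44920743-44920992, minus strand) and Uqcr11 (chr10:80406822-80406899, minus strand), where the NRF-1 match runs past the start.
Sdhb: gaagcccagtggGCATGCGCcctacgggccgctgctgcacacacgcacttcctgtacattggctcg
Atp5k: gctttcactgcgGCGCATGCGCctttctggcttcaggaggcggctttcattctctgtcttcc
Cox6a1: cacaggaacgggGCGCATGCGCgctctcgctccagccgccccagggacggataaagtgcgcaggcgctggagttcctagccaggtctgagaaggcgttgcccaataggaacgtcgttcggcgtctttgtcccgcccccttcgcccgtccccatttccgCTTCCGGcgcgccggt
Atp5l: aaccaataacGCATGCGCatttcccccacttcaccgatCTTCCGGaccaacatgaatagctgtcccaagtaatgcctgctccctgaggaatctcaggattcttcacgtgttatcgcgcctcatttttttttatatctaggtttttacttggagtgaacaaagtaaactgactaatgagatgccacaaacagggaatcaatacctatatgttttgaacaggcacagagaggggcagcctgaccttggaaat
Uqcr11: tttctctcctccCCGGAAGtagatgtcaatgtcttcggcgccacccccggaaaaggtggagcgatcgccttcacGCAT
The 5 genes did not share a counted level. Cox6a1 and Sdhb were the highest or second highest genes of their complexes per kilobase. Atp5k was found in a larger and Atp5l in a smaller share of pregnancy than of marked cells. Uqcr11 had 0 read pairs, which may not be its level of expression. The 28 genes with any match had median levels of 199, 195 and 231 CPM per kilobase in marked, unmarked and pregnancy cells, and the 41 without had 127, 131 and 185. Their median log2 ratios for pregnancy were 0.20 and 0.22 over marked cells and 0.19 and 0.11 over unmarked cells, with and without a match. A match is a run of letters and was not tested for binding.

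The 15 genes of the mitochondrial genome in the counts are a measure that the choice of genes did not use. Their share of all read pairs of a cell had medians of 9.65% in marked, 15.6% in unmarked and 18.4% in pregnancy cells. The ratio of reads from mitochondrially encoded subunits to reads from the nuclear genes had medians of 6.51, 10.3 and 11.4. The nuclear sum and the mitochondrial share were nearly unrelated over cells, with Spearman's rho of 0.10 over 81 marked, 0.05 over 58 unmarked and −0.15 over 71 pregnancy cells. By complex rho ran from −0.18 to 0.22, and against the mitochondrial subunits of the same complex from −0.25 to 0.24. Each point is 1 cell, and both measures share its library and depth.

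**Figure D5:**
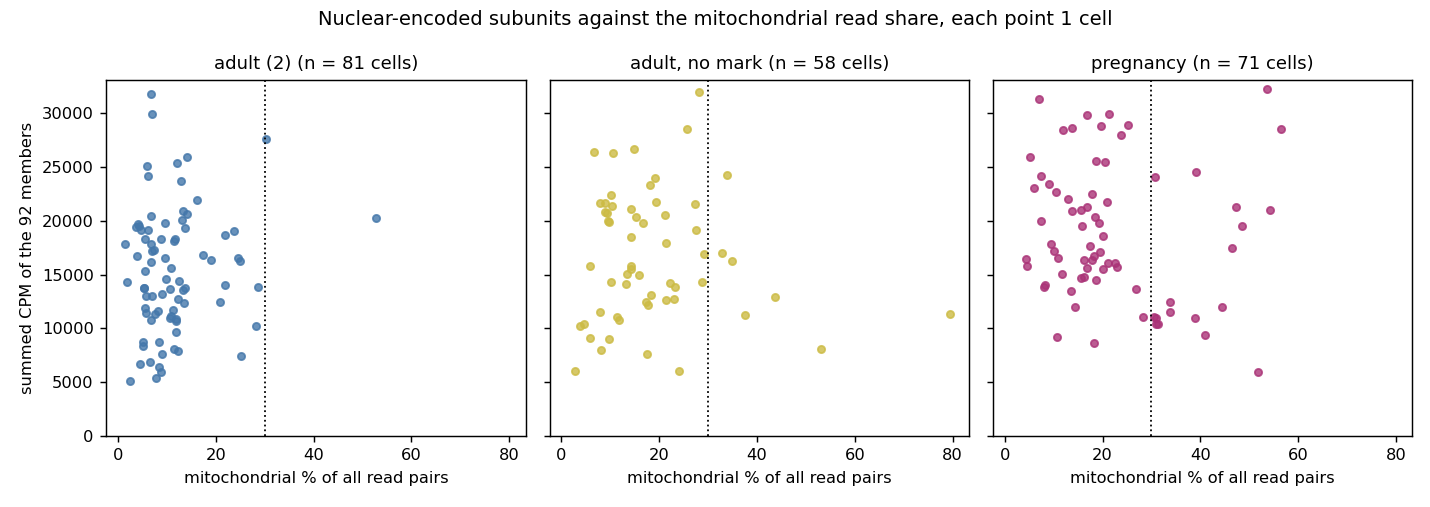
Summed CPM of the nuclear-encoded respiratory chain genes against the mitochondrial share of reads in percent, with 1 point per retained cell in each group and a dotted line at 30%. Above the line lie 2 marked, 7 unmarked and 18 pregnancy cells; Spearman's rho is 0.10, 0.05 and −0.15.

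The 18 pregnancy cells above 30% had a median sum of 12216 CPM, against 17817 CPM in the 53 other pregnancy cells. A high mitochondrial share is also a common sign of cell damage, and its part in these sums was not tested. Between the nuclear sums of pairs of complexes, rho ran from 0.03 to 0.67 over the 3 groups, a range that overlaps the one with the mitochondrial share. The sums of complexes I and IV gave 0.67 in pregnancy, 0.43 in marked and 0.37 in unmarked cells.

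Single cells weighed heavily in many means. For genes at or above 50 CPM, the highest cell held a median of 9.93% of the summed CPM in marked, 18.4% in unmarked and 9.07% in pregnancy cells. It held 25% or more for 4 of 64, 23 of 66 and 3 of 66 genes. Among all genes at or above 50 CPM it did so for 34.2%, 63.1% and 33.1%. Over all genes above the limit the medians were 19.3%, 31.2% and 18.2%, so the respiratory chain genes were spread more evenly over cells than other genes, whose mean level was also lower.

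Genes that build, feed and regulate the chain were taken as fixed lists. The genes named from each list are those with the largest log2 ratios of one sign over both adult groups, unless stated, and do not stand for the list. Of 44 assembly factors only 10 passed 50 CPM for pregnancy over marked cells and 14 over unmarked cells. At least 2-fold higher and lower were 1 and 2 genes over marked cells and 2 and 6 over unmarked cells, with median log2 ratios of 0.38 and −0.17. Cox10, which makes heme O for complex IV, had log2 ratios of 1.40 and 1.38 and was found in 11.1%, 19.0% and 52.1% of cells. The complex I assembly factors Ndufaf4 (−1.16 and −1.33) and Ndufaf2 (−1.06 and −1.20) had lower means in pregnancy. Ndufaf4 was found in 29.6%, 31.0% and 16.9% and Ndufaf2 in 40.7%, 32.8% and 33.8% of cells.

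Of 17 citric acid cycle genes, 14 passed in each comparison. At least 2-fold higher and lower in pregnancy were 3 and 1 over marked cells and 6 and 0 over unmarked cells, with median log2 ratios of 0.24 and 0.77. Sucla2, a succinyl-CoA ligase subunit, had log2 ratios of 1.10 and 1.25 and was found in 46.9%, 48.3% and 85.9% of cells. The mitochondrial isocitrate dehydrogenase Idh2 had 1.37 and 0.79. Unmarked over marked cells gave 1 gene higher and 5 lower, with a median of −0.66, where 18.9% and 16.7% of all genes were higher and lower.

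Of 17 glycolysis genes, 10 passed for pregnancy over each adult group, with 1 at least 2-fold higher over marked and 2 over unmarked cells and 0 lower, and median log2 ratios of 0.27 and −0.05. Pfkl, a phosphofructokinase, had log2 ratios of 1.94 and 2.49, whereas its relative Pfkp had −0.71 and −0.65. The median of Pfkl was 0 CPM in each group, and it was found in 11.1%, 15.5% and 22.5% of cells. Ldha, which makes lactate, had means of 796, 845 and 446 CPM and log2 ratios of −0.82 and −0.91. Of 78 mitochondrial ribosomal protein genes, 30 and 35 passed, with 4 higher and 2 lower over marked cells and 6 and 6 over unmarked cells. The median log2 ratio of the ribosomal list was 0.06 over marked and −0.30 over unmarked cells, where 15 of 35 were positive. Mrpl1 had 1.34 and 1.93, Mrps12 1.31 and 1.03 and Mrpl54 0.95 and 1.48. Each of these had a median of 0 CPM in every group. Mrpl1 was found in 8.64%, 6.90% and 28.2% and Mrpl54 in 18.5%, 22.4% and 35.2% of cells. Mrps12 was found in 16.0%, 19.0% and 18.3% of cells, and its highest pregnancy cell stood at 2269 CPM.

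Of 10 carriers, 8 passed for pregnancy over marked and 9 over unmarked cells, with 1 at least 2-fold higher in each and 0 lower and median log2 ratios of 0.10 and 0.10. Etfb, an electron transfer flavoprotein subunit, had log2 ratios of 0.73 and 1.02, and the outer membrane channels Vdac1 and Vdac2 had 0.33 and 0.27 and −0.34 and −0.22. Of 15 regulators of mitochondrial biogenesis, 6 and 5 passed, with 2 higher and 1 lower over marked and 3 higher and 0 lower over unmarked cells, and median log2 ratios of −0.05 and 1.33. Gabpa, the DNA-binding subunit of GABP, had 1.08 and 1.55 and was found in 13.6%, 17.2% and 53.5% of cells. Tfam, which packages mitochondrial DNA, had means of 47.3, 31.6 and 123 CPM and log2 ratios of 1.21 and 1.68, with its highest cell at 3728 CPM. The median of Tfam was 0 CPM in each group, and it was found in 17.3%, 15.5% and 29.6% of cells. Chosen after their values were seen, Gabpb1, the partner of Gabpa, had −1.24 over marked cells and was below 50 CPM for the other comparison, and Myc had −0.60 over marked and 1.33 over unmarked cells. The counts of the lists are to be read beside the 18.4% and 15% of all genes over marked and the 19.7% and 19.3% over unmarked cells.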

How the data were processed

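The authors deposited raw counts, whole numbers of read pairs for each Entrez gene ID in each cell. Per the submitters' processing notes and the study's methods, pairs of reads were aligned to mm10 with Subread 1.5.0, and featureCounts assigned them to genes of the RefSeq annotation built into Rsubread. Strand use and the handling of multiple matches are not given in the sources used here. A table of all cells together was not used.

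IDs were matched to RefSeq symbols of GRCm38, the build of mm10. After 15 mitochondrial and 124 ribosomal protein genes and IDs without a symbol were removed, 25136 genes remained. Retained cells held 51464 to 405910 assigned read pairs. No doublet caller was run. CPM, thinning (fixed seed), a pseudocount of 10 CPM, a limit of 50 CPM and exact intervals were used as stated above, with Python 3.11.15, numpy 2.4.6, pandas 2.3.3 and scipy 1.17.1. Size factors came from edgeR 4.0.16 (TMM) and DESeq2 1.42.0 in R 4.3.3, on counts summed within groups, and no test was run with either. Scripts were tested on simulated data. Windows shared between genes were taken from GENCODE vM21 transcripts.

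Groups came from titles. The genes and lists were chosen with earlier results of these data known. Named were the highest and second highest genes per kilobase of each complex, the 6 genes in each direction with the largest smaller log2 ratio of one sign for pregnancy over both adult groups, the 4 in each direction for unmarked over marked cells, tissue-restricted paralogs, Sdha to Sdhd and up to 3 genes of each list. Genes past 2-fold or with detection intervals apart, and Ndufs5, Atp5a1, Atp5b, Uqcrfs1, Cox5b, Cox7c and Uqcr11, were added after their values were seen. Results for some genes are not reported here.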

Additional observations from a re-analysis of the deposited data

Results flagged for a closer look

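Cells below the depth and gene limits entered no comparison. In these left-out cells the respiratory chain genes still took 1.35% (exact interval 1.31 to 1.38) of assigned read pairs in 31 marked adult cells, 0.962% (0.940 to 0.985) in 67 unmarked adult cells and 1.70% (1.61 to 1.78) in 4 pregnancy cells. They were listed because they are a signal outside the cells used above. The retained cells of the same groups had 1.57%, 1.70% and 1.94%. The left-out values rest on 6088, 6919 and 1588 read pairs of these genes, and whether such cells are damaged, empty or shallow was not tested.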

How the results depend on the processing

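No paired analysis was possible because a number in a title only names a cell, and no test was run. Of 183 summary values under other settings, 146 were classed as close to the values above and 37 as moved. The limits differed by kind of value. For medians and correlations they followed the spread over cells or genes, and for counts of genes past 2-fold a fixed tolerance. They are not ranges of counting error. Of 739 log2 ratios of single genes, 688 lay within 0.5 of the value above. The sign changed in 12 of the 739, for Atp5e, Ndufa4l2, Ndufc1, Ndufs8, Sdha and Uqcrc2. Of these, Ndufa4l2 for pregnancy over marked cells alone was past 2-fold (−1.08), and was 0.091 among cells with at least 6 core basal genes. The settings of leaving out the highest cell of each gene and using only genes with no shared window, were chosen after seeing the data.

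Summed CPM in marked, unmarked and pregnancy cells had medians of 12646, 12518 and 13145 with CPM over all read pairs, 19001, 20787 and 22039 without the 50 highest genes, and 7905, 7887 and 9511 over genes with no shared window. Among cells with at least 6 core basal genes the medians were 15930, 16262 and 17305 CPM, and pregnancy was 1.09 and 1.06 times the marked and unmarked medians. Genes detected had medians of 42, 36 and 46 at 20000 read pairs, and 42, 35 and 46 with at least 2 read pairs required.

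The median log2 ratio was 0.094 for pregnancy over marked cells with CPM over all read pairs, and 0.023 for pregnancy over unmarked cells with DESeq2 size factors and 0.36 without the highest cells. For pregnancy over marked and unmarked cells it was 0.20 and 0.11 among cells with at least 6 core basal genes. Without cells of 3 or more proliferation genes it was 0.19 and 0.11. With the mean of log2 values it was 0.52, 0.85 and −0.36 in the 3 comparisons, where the median of all genes was 0.63, 0.96 and −0.36.

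Genes past 2-fold numbered 0 in each comparison with a pseudocount of 100 CPM. For pregnancy over marked cells (7 above) there were 4 with no shared window. Over unmarked cells (2 above) there were 11 in cells with at least 100000 read pairs, 8 from group sums, 17 with the mean of log2 values, 4 with a pseudocount of 1, 5 without cells of 3 or more proliferation genes, 9 without the highest cells and 0 with no shared window. For unmarked over marked cells (6 above) there were 15, 10 and 2 for the first 3 of these settings, and 10 without proliferating cells. In those first 3 settings 67, 66 and 48 genes passed for pregnancy over unmarked cells, and 67, 68 and 38 for unmarked over marked cells. The share of all genes past 2-fold was not computed under the other settings, so these counts cannot be set beside it. The correlation with the mitochondrial share in pregnancy was −0.55 with CPM over all read pairs, whose denominator holds the mitochondrial reads. The cause of the other moves was not tested. Depth limits detection, and denominators, pseudocounts and CPM limits do not bear on the number of genes detected per cell, nor thinning limits on CPM. The counts of genes by detected share do depend on the limit of 50 CPM. Without it, the share was larger in pregnancy than in marked cells for 69 of 92 genes (75%, against 44.9% of all genes). It was smaller for 19.6% (against 18.1%) and equal for 5 genes (9312 of all 25136 genes). Over unmarked cells it was larger for 77 (83.7%, against 41.8%), smaller for 10.9% (against 20.1%) and equal for 5 (9566 of all genes). The many equal shares lower the percentages of all genes, so these cannot be read like those with the limit.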
